A study of Mus musculus with 6 samples.

Results

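Read counts were examined for 29 genes of sterol and fatty acid synthesis among the 23282 genes counted in 9 RNA-seq libraries from mouse blood-forming cells. The members were a list of gene symbols, matched to NCBI gene numbers. They comprised 7 genes of the mevalonate pathway, 11 of the steps from squalene precursors to cholesterol, 3 regulators, 1 sterol transfer protein and 7 enzymes of fatty acid synthesis. The libraries came from 6 samples on a mixed 129/Sv x C57BL/6 background, and the question addressed is how expression differs with the loss of Mll4 and with added FOXO3. Mll4 (gene symbol Kmt2d) is an enzyme that methylates histone H3 on lysine 4, chiefly at enhancers, and FOXO3 is a transcription factor of stress resistance.

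There were 2 LSK libraries, 1 per genotype. LSK stands for lineage-negative, Sca1+, c-Kit+ marrow cells, a fraction that includes the blood stem cells. They were sorted at 2 months of age from littermates with the MxCre transgene, an interferon-driven Cre switched on by polyIC. All of these mice received polyIC: one genotype carried floxed Mll4 alleles (labelled Mll4f/f + Cre) and the other was wild type. About 50 picked cells per library went through many cycles of PCR. The other 7 libraries came from bone marrow cells transformed by a retrovirus with the leukaemia fusion gene MLL-AF9 and grown for 14 days. In the first experiment, Mll4f/f cells with the MxCre transgene received a Cre retrovirus with a Tomato marker (labelled Mll4 deleted, 2 libraries) or the Tomato vector alone (Mll4 intact, 2 libraries). They were sorted for GFP and Tomato 5 days after infection, so the deletion and the Cre virus cannot be told apart. In the second, MLL4-/- marrow was transformed with MLL-AF9-neo together with FOXO3-IRES-GFP (2 libraries) or an empty vector (EV, 1 library), selected in G418 and sorted for GFP. Both of its groups lack Mll4 by label.

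The sterol pathway joins acetyl-CoA units into mevalonate, builds isoprenoids and squalene from it, closes the squalene chain into lanosterol and trims that to cholesterol. Fatty acid synthesis starts from the same acetyl-CoA, which ATP citrate lyase and acetyl-CoA synthetase supply. Both branches are known targets of the SREBP transcription factors, which are held in the endoplasmic reticulum by INSIG proteins when sterols are plentiful and are cut and released when sterols fall. Dividing blood cells need both products for new membrane. SREBP proteins are known to act at promoters beside the factors NF-Y, which binds CCAAT, and Sp1, which binds GC boxes.

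Promoter sequences from RefSeq (GRCm38.p6, a later build than the mm9 that the submitters' processing notes name) were present for 23 of the 29 members. The 250 bases before the start were searched on both strands for CCAAT, for the GC box GGGCGG, for the E-box CACGTG and for the sterol regulatory element TCACNCCAC. The CCAAT box stood in 19 of the 23 (82.6%), against 37.5% of 27025 genes, and the GC box also in 19 (82.6%), against 35.4%. These 27025 genes were not limited to genes expressed in these cells, and the share among expressed genes was not counted. The sterol regulatory element in this spelling stood in 1 of 23, Hmgcs1, against 1.22% of all genes, and the E-box in 4 of 23 (17.4%) against 6.86%. The 200 bases before the start are printed for 6 members, because they range from a promoter with every element but the E-box to one with none and include members that the comparisons below turn on. Capitals mark the sterol regulatory element, CCAAT or its reverse ATTGG, and the GC box or its reverse CCGCCC; in Fasn a CCAAT and an ATTGG share bases. A match is a description of the letters and not evidence of a bound site.
Hmgcs1 (chr13:119690151-119690350, + strand): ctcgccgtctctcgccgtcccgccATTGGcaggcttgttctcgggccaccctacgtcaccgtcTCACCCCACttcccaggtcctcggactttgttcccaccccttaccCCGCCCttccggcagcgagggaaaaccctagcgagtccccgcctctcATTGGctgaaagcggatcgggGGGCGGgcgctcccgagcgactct
Acat2 (chr17:12960726-12960925, - strand): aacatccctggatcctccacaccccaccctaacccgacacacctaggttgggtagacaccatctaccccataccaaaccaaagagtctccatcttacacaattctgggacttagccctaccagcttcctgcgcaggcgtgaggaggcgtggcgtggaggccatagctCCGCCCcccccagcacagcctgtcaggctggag
Idi1 (chr13:8885406-8885605, + strand): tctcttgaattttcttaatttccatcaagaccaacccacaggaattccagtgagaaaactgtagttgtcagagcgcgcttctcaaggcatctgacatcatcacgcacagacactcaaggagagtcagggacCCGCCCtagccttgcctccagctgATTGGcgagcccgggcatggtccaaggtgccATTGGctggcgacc
Lss (chr10:76531405-76531604, + strand): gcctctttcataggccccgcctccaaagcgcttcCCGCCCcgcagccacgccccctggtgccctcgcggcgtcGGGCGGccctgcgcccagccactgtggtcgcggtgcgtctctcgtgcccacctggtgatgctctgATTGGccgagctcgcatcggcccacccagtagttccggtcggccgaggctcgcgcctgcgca
Fasn (chr11:120824548-120824747, - strand): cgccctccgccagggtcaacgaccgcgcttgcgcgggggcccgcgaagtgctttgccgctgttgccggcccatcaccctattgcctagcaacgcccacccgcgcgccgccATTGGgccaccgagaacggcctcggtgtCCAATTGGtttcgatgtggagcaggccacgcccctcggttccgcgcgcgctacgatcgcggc
Elovl6 (chr3:129532186-129532385, + strand): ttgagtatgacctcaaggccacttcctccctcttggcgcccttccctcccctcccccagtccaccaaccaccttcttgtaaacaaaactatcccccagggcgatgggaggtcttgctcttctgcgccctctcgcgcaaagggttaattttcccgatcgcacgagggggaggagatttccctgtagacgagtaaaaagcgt

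Several facts of the libraries bear on the values. Totals ran from 25895041 to 61950773 counts per library. Kmt2d, counted over the whole gene, reached 95.6 and 73.7 CPM (counts per 1000000 counts of the library) in the MLL-AF9 pair labelled Mll4 deleted and 79.5 and 61.7 CPM in the intact pair, which does not check a deletion of part of the gene. It stood at 102 and 115 CPM with FOXO3 and 116 CPM with EV, above both intact libraries, although these cells are labelled MLL4-/-. The LSK libraries read 13.9 CPM (labelled Mll4 deleted) and 1.88 CPM (wild type). A count over the whole gene, in 1 library per genotype, can neither check nor contradict these labels. Foxo3 stood at 1292 and 1309 CPM with the FOXO3 virus and 27.3 CPM with EV. The FOXO3 libraries differed from each other by a chi-square of 1.97 per degree of freedom over genes, against 191 within the deleted pair and 146 within the intact pair. They were therefore also summed to 1 library, and the counts of called genes from that fit are given beside those of the full fit. No label ties the libraries of a group to separate cultures or mice, so p-values measure the spread between these libraries, which may be technical. Each pair of the first experiment held 1 female and 1 male library, and the second experiment was all male. The LSK libraries were assigned no sex. Y-linked Ddx3y stood at 14.4 CPM in the deleted and 0.827 CPM in the wild type LSK library, and Xist at 2.05 and 3.65 CPM. The part of sex in the LSK ratios was not tested, and the members Nsdhl and Ebp lie on chromosome X. The markers that define LSK cells were present, Kit at 102 and 46.8 CPM and Ly6a (Sca1) at 28.2 and 80.2 CPM in the deleted and wild type library, with B cell markers at 0 counts and T cell markers summing to at most 0.502 CPM. The 7 stem and progenitor markers, which include these, summed to 661 and 887 CPM. In the deleted library 4 of the 7 were at least 2-fold lower and 1 at least 2-fold higher, beside 34.9% and 28.1% of all genes. Other markers differed between these 2 libraries: the 3 erythroid markers summed to 0.0386 CPM in the deleted and 200.001 CPM in the wild type library, the 6 adipocyte, stroma and vessel markers to 0.0386 and 53.9 CPM (Col1a2 and Pecam1 in wild type) and the 5 promyelocyte granule genes to 301 and 587 CPM. Their part in the LSK ratios was not tested.

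**Figure D1:**
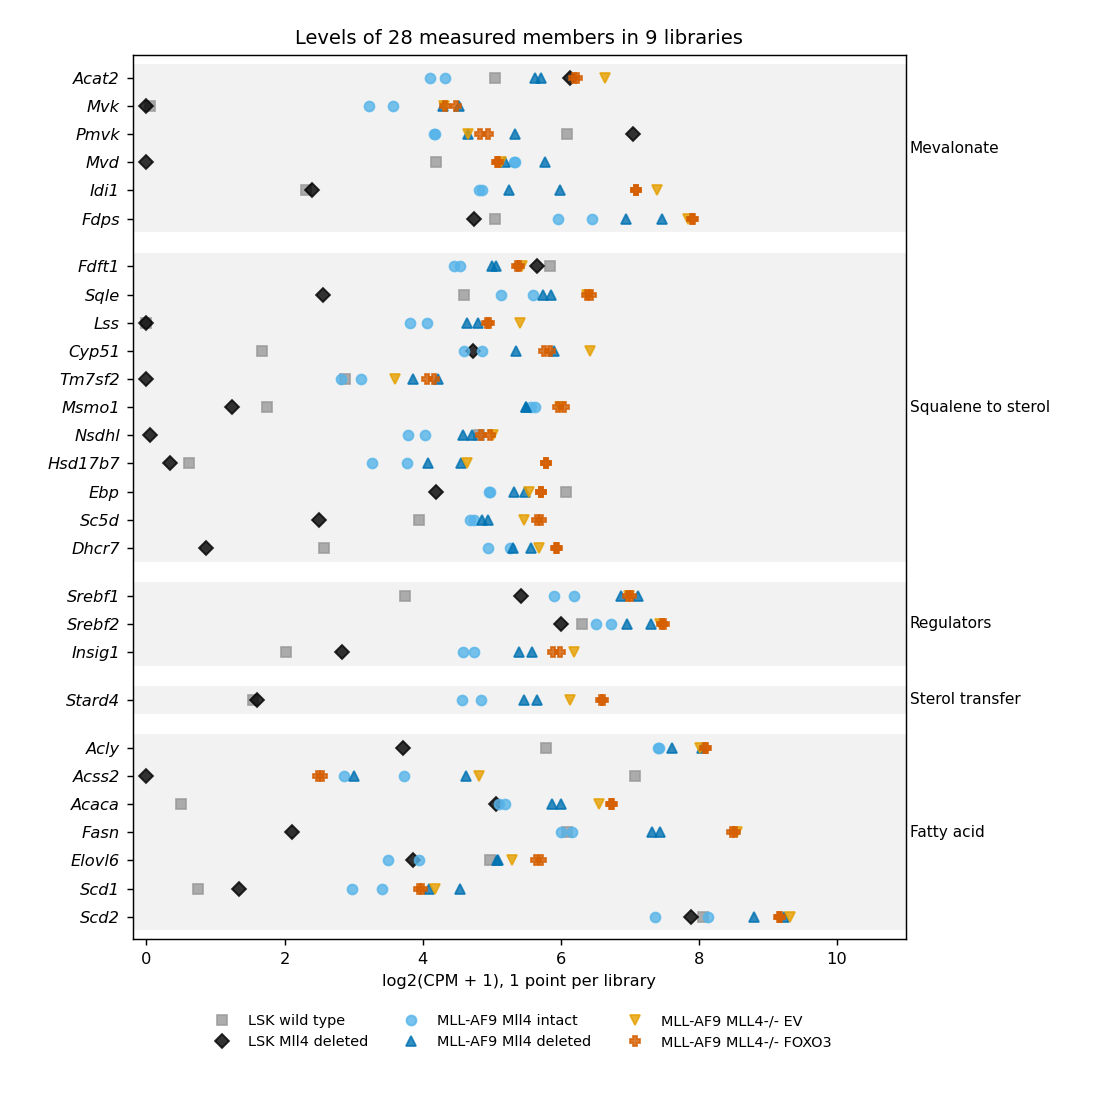
Expression of the 28 measured members in 9 libraries, as log2(CPM + 1), with 1 point per library, members in rows grouped by role, and colour and shape for the 6 groups. Both Mll4 intact libraries (light blue circles) lie below the 5 other MLL-AF9 libraries for 25 of the 28 members, and LSK points (grey squares and black diamonds) lie below all MLL-AF9 points for 17.

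Hmgcs1, the enzyme that condenses acetoacetyl-CoA and acetyl-CoA into HMG-CoA, was listed at 0 counts in all 9 libraries. That was so for 4605 of the 23282 genes (19.8%), and whether the gene was silent or its reads were not counted under this gene number was not tested. The other 28 members had counts in every MLL-AF9 library. Of these, 12 had their highest group mean in the FOXO3 cells, 8 in the EV cells, 4 in the MLL-AF9 cells labelled Mll4 deleted, 3 in wild type LSK cells and 1 in LSK cells labelled Mll4 deleted. No member had its highest mean in the Mll4 intact group. The same shares over all genes were not counted, and these means divide by library totals alone. Summed over all members, the intact pair reached 1268 and 1113 CPM and the pair labelled Mll4 deleted 1958 and 2293 CPM. The sum was 2971 CPM with EV, 2891 and 2923 CPM with FOXO3, and 1005 and 746 CPM in wild type and deleted LSK cells. The order intact, deleted, second experiment thus held for the summed level in all 7 MLL-AF9 libraries.

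The same order was counted gene by gene. Both intact libraries lay below all 5 other MLL-AF9 libraries for 25 of 28 members, against 38.3% of the 12596 genes that averaged 1 CPM or more. The exceptions were Mvd, Msmo1 and Acss2. All 3 libraries of the second experiment lay above all 4 of the first for 18 members, against 37.3% of genes, and below them for 1, Mvd, against 18.7%. Both LSK libraries lay below all 7 MLL-AF9 libraries for 17 members, against 50.3% of all genes, and above them for 2, Fdft1 and Pmvk, against 10.4%. CPM divides by the library total alone, and the share of counts held by the top 10 genes was 13.4% and 17.4% in the intact libraries but 4.59% to 7.62% in the other MLL-AF9 libraries. On TMM-scaled CPM the 25 members became 21 (24.6% of genes), the 18 became 14 (28.5%) and the 17 became 12 (39.8%). Cell type and library protocol cannot be told apart between LSK and MLL-AF9 cells.

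In MLL-AF9 cells labelled Mll4 deleted, 8 of the 28 tested members were higher than in intact cells and none was lower. The 8 were Acat2, Lss, Srebf1, Stard4 and the fatty acid genes Acaca, Fasn, Elovl6 and Scd1, with the largest differences at about the same size for Acat2, Elovl6 and Fasn. The test was edgeR's quasi-likelihood test over all 7 MLL-AF9 libraries, with Benjamini-Hochberg adjustment over 14997 genes and a threshold of 0.05 on the adjusted p. Over all genes, 7.97% were higher and 6.94% lower. With the FOXO3 libraries summed, 2 members stayed higher, Acat2 and Fasn, beside 1.23% of all genes, and again none was lower, beside 0.854%. The log2 fold change was above 0 for 25 of 28 members, with a median of 0.56 against -0.032 over all genes, and 17 members had an unadjusted p under 0.05 (16 above 0 and Msmo1 below), against 33.9% of all genes in either direction. In bulk samples such as these, fewer cells of a type and less RNA per cell cannot be told apart.

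Groups of 2 libraries can also be read by whether they overlap. On TMM-scaled CPM, both deleted libraries lay above both intact libraries for 19 of 28 members, against 26.9% of all genes tested. They lay below for 1 member, Msmo1, against 30.0%. Within the female libraries the log2 ratio of deleted over intact was above 0 for 21 members, with a median of 0.44 against 0.0075 over all genes. Within the male libraries it was above 0 for 26, with a median of 0.62 against -0.058. Both ratios were above 0 for 20 members.

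Among the mevalonate genes, 1 of 6 tested members was higher, beside 7.97% of all genes. Acat2, the cytosolic thiolase that joins acetyl-CoA into acetoacetyl-CoA, read 51.3 and 48.2 CPM with the deletion label against 16.3 and 18.9 CPM without it. The groups were far apart, with a log2 fold change of 1.21 ± 0.15 (SE) and an adjusted p of 0.0112 (edgeR). The next kinases, mevalonate kinase Mvk and phosphomevalonate kinase Pmvk, did not overlap between groups either but did not pass the test. Mvk read 18.5 and 22.0 against 8.34 and 10.9 CPM, with a log2 fold change of 0.78 ± 0.22 (edgeR adjusted p = 0.0698). Pmvk read 24.1 and 39.5 against 17.1 and 16.8 CPM (0.62 ± 0.24 on the log2 scale, edgeR adjusted p = 0.139). Its deleted libraries differed from each other by more than the lower one differed from the intact pair. Fdps, which makes farnesyl diphosphate, read 122 and 176 against 86.4 and 61.0 CPM (log2 fold change 0.75 ± 0.21, edgeR adjusted p = 0.0682). Idi1, the isomerase of the isoprenoid units, read 62.7 and 37.2 against 27.3 and 28.2 CPM (0.57 ± 0.25, edgeR adjusted p = 0.169). Mvd, the decarboxylase between Pmvk and Idi1, overlapped between groups, at 35.5 and 53.5 against 38.9 and 39.6 CPM, with a log2 fold change of -0.10 ± 0.21.

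From squalene to cholesterol, 1 of 11 members was higher, beside 7.97% of all genes, and the median log2 fold change was 0.28. Lss, the cyclase that closes the sterol ring, stood at 26.8 and 23.9 CPM in the deleted pair and 15.7 and 13.2 CPM in the intact pair. Its log2 fold change was 0.54 ± 0.12 (edgeR adjusted p = 0.0394). Tm7sf2, a sterol C14 reductase, read 13.5 and 17.7 against 6.07 and 7.64 CPM, a larger log2 fold change of 0.89 ± 0.23 that missed the threshold (edgeR adjusted p = 0.0566). Cyp51, the lanosterol demethylase, read 59.0 and 39.7 against 23.3 and 28.1 CPM (0.65 ± 0.23, edgeR adjusted p = 0.111). Nsdhl and Hsd17b7, which act in the removal of the C4 methyl groups, had log2 fold changes of 0.49 ± 0.17 and 0.55 ± 0.27. Fdft1, which makes squalene, had 0.28 ± 0.12, and Sqle, which adds the first oxygen to it, 0.13 ± 0.21. The last enzymes of the series lay near the level of all genes: Ebp, the sterol isomerase, at 0.17 ± 0.12, Sc5d, the sterol desaturase, at -0.076 ± 0.10, and Dhcr7, the sterol C7 reductase, at 0.050 ± 0.19. Msmo1, the C4 methyl oxidase, was the member that lay furthest in the other direction. It read 44.1 and 44.0 CPM in the deleted pair and 46.5 and 48.4 in the intact pair. Its log2 fold change was -0.39 ± 0.11 (edgeR adjusted p = 0.0723). These CPM divide by library totals alone, while the fold change uses TMM scaling. Over the alternative settings the log2 fold change of Msmo1 ran from -0.50 to -0.11.

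Of the 3 regulators, 1 was higher, Srebf1, beside 7.97% of all genes. Srebf1, which encodes the SREBP tied mainly to fatty acid genes, read 116 and 138 CPM in the deleted pair and 71.9 and 59.0 in the intact pair. Its log2 fold change was 0.68 ± 0.12 (edgeR adjusted p = 0.0252). Srebf2, which encodes the SREBP tied mainly to sterol genes, read 123 and 157 against 105 and 90.0 CPM (log2 fold change 0.25 ± 0.14, edgeR adjusted p = 0.274). Insig1, the SREBP retention protein and itself a known SREBP target, read 41.2 and 47.0 against 23.0 and 25.7 CPM (0.57 ± 0.15, edgeR adjusted p = 0.0556). Stard4, which carries cholesterol between membranes, read 43.4 and 49.2 against 27.9 and 22.7 CPM and was higher, with a log2 fold change of 0.60 ± 0.12 (edgeR adjusted p = 0.0284). All 4 of these genes kept their groups apart.

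The fatty acid enzymes held 4 of the 8 higher members, with all 7 fold changes above 0 and a median of 0.94. Over all genes, 7.97% were higher. Fasn, the synthase that builds palmitate, stood at 173 and 158 CPM in the deleted pair and 70.5 and 62.9 in the intact pair. It had a log2 fold change of 1.03 ± 0.10 and the smallest adjusted p of the members, 0.00884 (edgeR). Elovl6, which extends palmitate to stearate, read 32.8 and 33.2 against 14.4 and 10.3 CPM (1.15 ± 0.14, edgeR adjusted p = 0.0114). Acaca, the carboxylase that makes malonyl-CoA, read 57.4 and 63.1 against 35.7 and 33.3 CPM (0.53 ± 0.10, edgeR adjusted p = 0.0283). Of the desaturases, Scd1 read 16.0 and 22.2 against 9.69 and 6.89 CPM (0.94 ± 0.22, edgeR adjusted p = 0.0437). Its near copy Scd2 read 445 and 603 against 279 and 164 CPM (0.98 ± 0.25, edgeR adjusted p = 0.0523). The acetyl-CoA suppliers did not pass: Acly read 193 and 263 against 171 and 169 CPM, with a log2 fold change of 0.14 ± 0.17. Acss2 read 23.8 and 7.06 against 12.2 and 6.24 CPM, so that its deleted libraries differed by more than the groups did (0.49 ± 0.57).

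**Figure D2:**
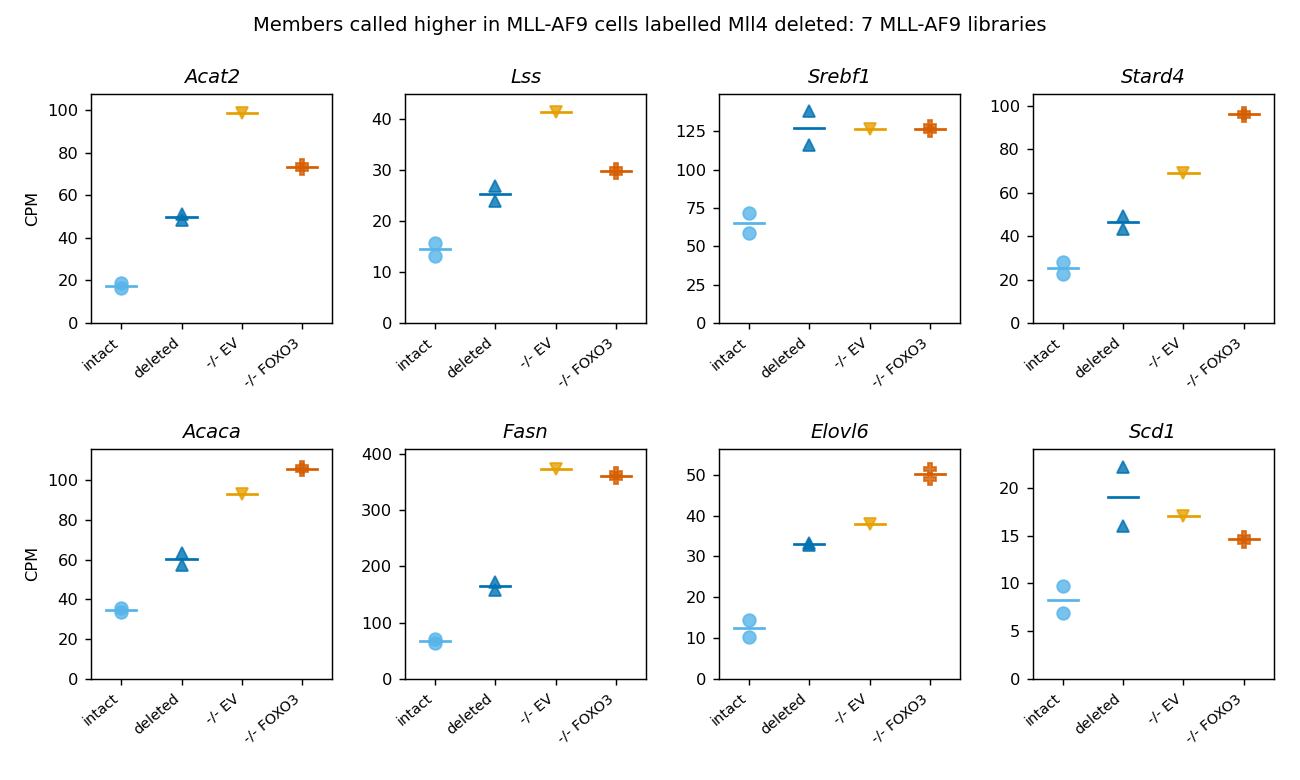
CPM of the 8 members that passed the test between MLL-AF9 cells labelled Mll4 deleted and intact, in 7 MLL-AF9 libraries, with 1 point per library, a line at the group mean, and each axis starting at 0. In every panel both deleted libraries lie above both intact libraries. EV and FOXO3 points lie above the deleted pair for Acat2, Lss, Stard4, Acaca, Fasn and Elovl6, but not for Srebf1 and Scd1.

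The annotated spans of other counted genes overlap those of 8 members in GRCm38.p6, and the use of strand in counting is not given in the sources used here. Whether reads were shared was not tested. The values of Fdft1 (with Ctsb), Lss (4930483K19Rik), Tm7sf2 (Vps51), Srebf1 (Rai1), Srebf2 (Mir33), Acss2 (Acss2os), Acaca (Tada2a and Gm11437) and Scd2 (Mir5114) are uncertain to that extent. The calls also leaned on which libraries entered the fit. With intact library 1 or 2 left out, 3 members passed (Acat2, Elovl6 and Fasn), beside 2.496% and 4.828% of all genes higher. With FOXO3 library 1 or 2 left out 2 passed, beside 1.18% and 1.24%, and with deleted library 1 left out 14, beside 11.8%. Fitted on the 4 libraries of the first experiment alone, no member and no gene passed (smallest adjusted p 0.0514, edgeR), while 14 members and 3498 genes (24.7%) had an unadjusted p under 0.05. DESeq2 called 14 members higher and 1 lower, beside 13.6% and 12.6% of all genes. Under scaling by library totals alone the median of all genes moved to 0.24, with 2940 genes called higher and 600 lower in place of 1196 and 1041, and 18 members passed as higher.

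**Figure D3:**
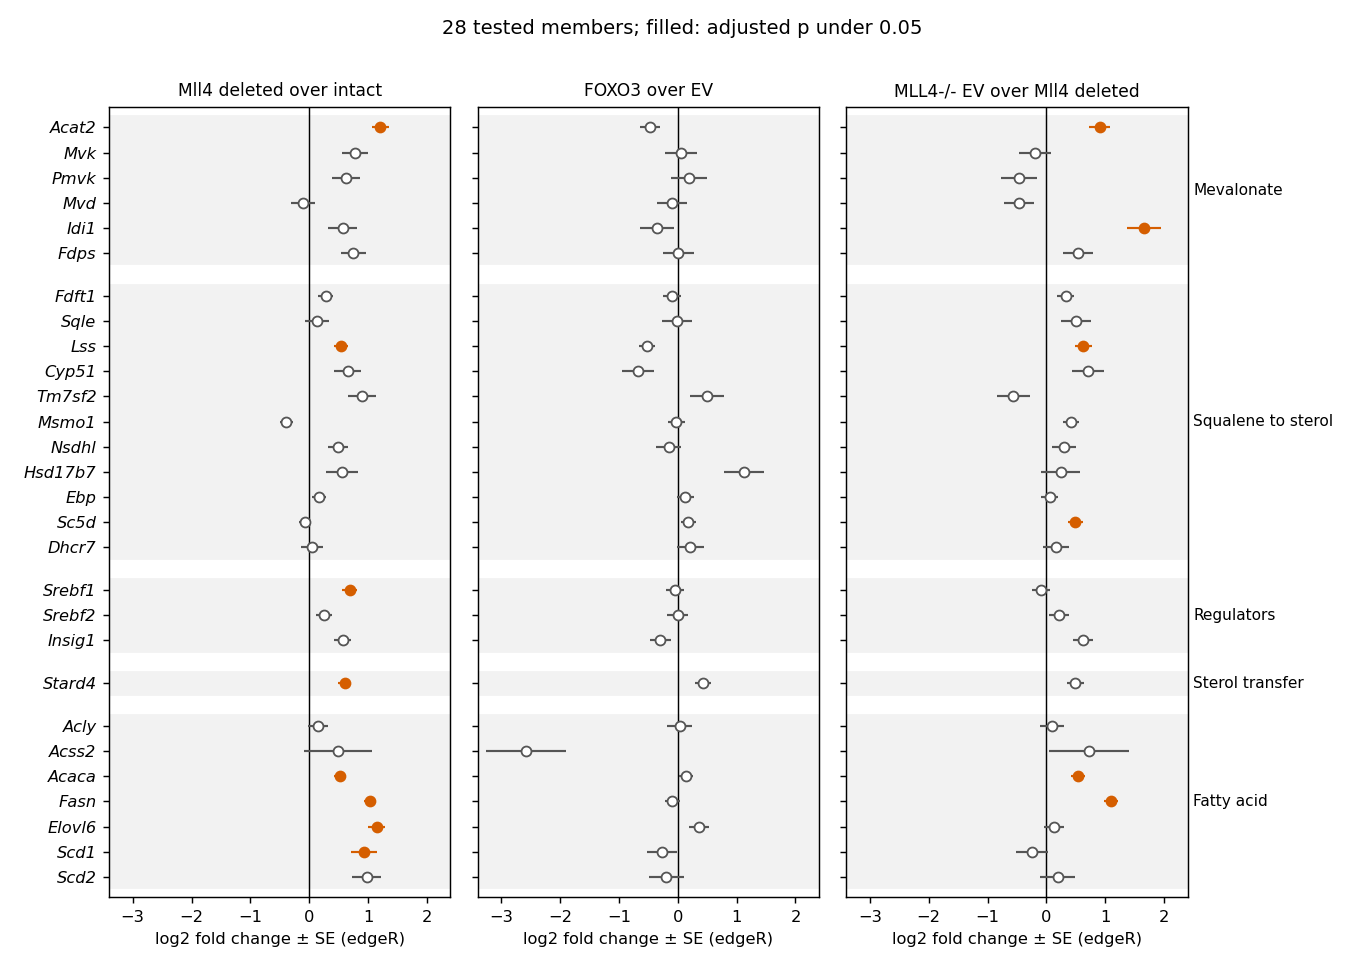
Log2 fold change (edgeR) with its SE for the 28 tested members, grouped by role, in 3 comparisons of MLL-AF9 cells; filled points passed an adjusted p of 0.05. The left panel has 25 of 28 points right of 0 and 8 filled, the middle panel 12 right of 0 and none filled, and the right panel 22 right of 0 and 6 filled.

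Other cell state genes moved in the same comparison, in which 7.97% of all genes were higher and 6.94% lower. The 10 cell cycle markers, of which Pcna and Mki67 were the most abundant, summed to 2165 and 2506 CPM in the deleted pair and 905 and 901 CPM in the intact pair, and 8 of 10 passed as higher (6 with the FOXO3 libraries summed). The 8 macrophage markers, led by Mrc1 and Clec7a, summed to 1726 and 2823 CPM against 3746 and 4372 CPM, with 2 of 8 lower (also with the libraries summed) and all 8 fold changes below 0. The 5 promyelocyte granule genes, led by Mpo and Elane, summed to 10201 and 13608 CPM against 1711 and 2446 CPM, and all 5 were higher (4 with the libraries summed). Erythroid markers were low in both groups, at 0.936 and 0.631 against 3.58 and 1.74 CPM, with 2 of 3 lower (none with the libraries summed). B cell markers summed to at most 0.436 CPM in every MLL-AF9 library. The part of cell division and of these cell states in the higher levels of sterol and fatty acid genes was not tested.

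**Figure D4:**
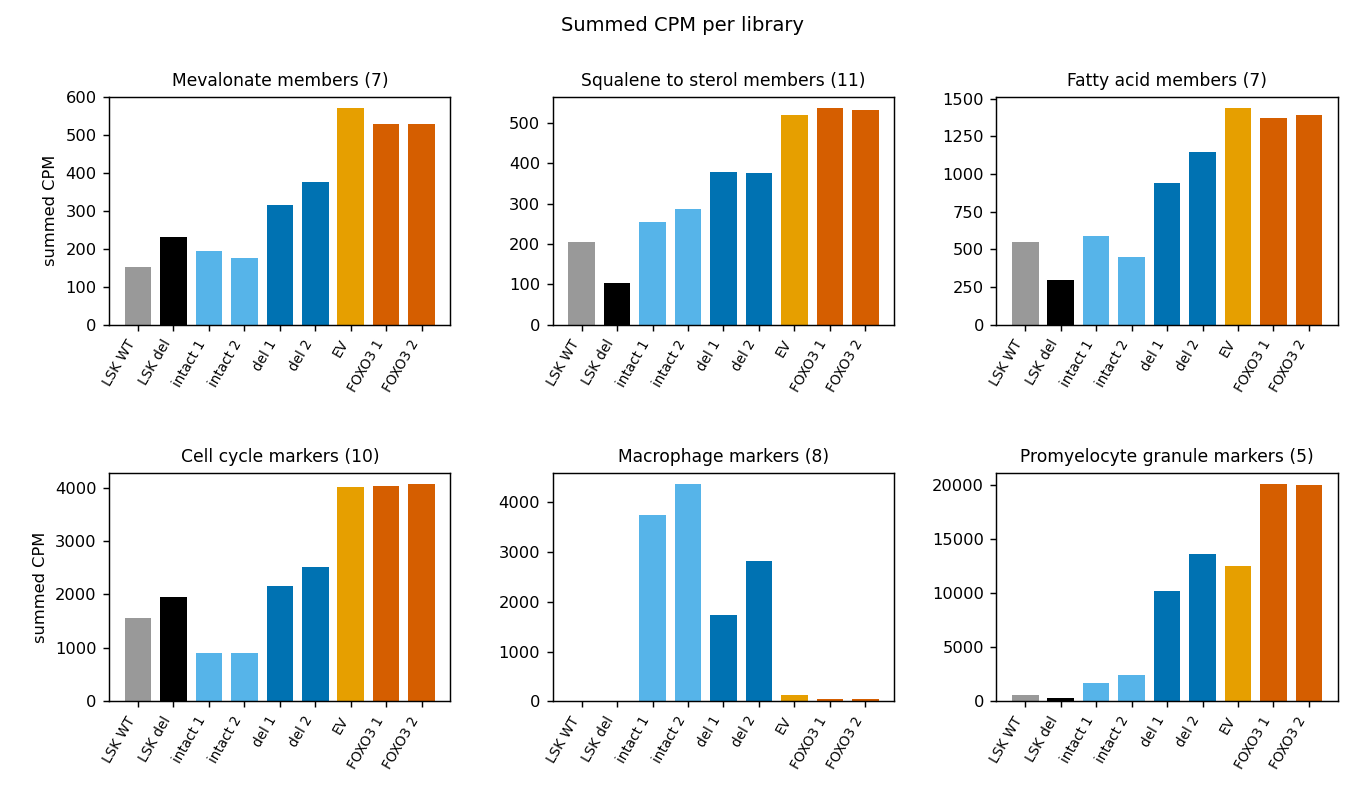
Summed CPM per library of the mevalonate, squalene to sterol and fatty acid members and of markers of the cell cycle, macrophages and promyelocyte granules; bars start at 0 and colours mark the 6 groups. In the 7 MLL-AF9 libraries the member sums and the cell cycle sum are lowest in the intact pair and highest in the EV and FOXO3 libraries, and the macrophage sum is highest in the intact pair.

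Related genes outside the list were read from 5 further lists. Over all genes in this comparison, 7.97% were higher and 6.94% lower, and 1.23% and 0.854% with the FOXO3 libraries summed. Of 11 other sterol and isoprenoid genes tested, 2 were higher and none lower, and neither passed with the FOXO3 libraries summed. Pdss1, which makes the side chain of ubiquinone, had a log2 fold change of 0.97 ± 0.23 (edgeR adjusted p = 0.0455), and Tmem97, a sterol-responsive membrane protein, 0.58 ± 0.089 (edgeR adjusted p = 0.0173). Of 12 genes that control SREBP, 1 was higher, the ubiquitin ligase gene Rnf145 (0.73 ± 0.17, edgeR adjusted p = 0.0455; none with the libraries summed), and the median was -0.080. Of 24 genes of fatty acid elongation, desaturation and activation, 2 were higher and 1 lower, and with the libraries summed 1 was higher and none lower. Fads2, the delta-6 desaturase, read 17.1 and 14.4 against 4.01 and 2.32 CPM (2.05 ± 0.25, edgeR adjusted p = 0.0112; it passed with the libraries summed). Acacb, the mitochondrial acetyl-CoA carboxylase, had 1.16 ± 0.23, and Mid1ip1, a protein that activates the carboxylases, fell by 0.67 on the log2 scale (edgeR adjusted p = 0.0452).

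Genes of sterol efflux, storage and the sterol sensor LXR lay the other way. Of 15 tested, 14 had a fold change below 0, with a median of -0.47, although only 2 passed as lower and 1 as higher, and with the FOXO3 libraries summed 1 as lower and none as higher. Ch25h, which makes 25-hydroxycholesterol, read 10.8 and 18.1 CPM in the deleted pair and 72.2 and 126 CPM in the intact pair (log2 fold change -3.08 ± 0.49, edgeR adjusted p = 0.0186), and it is the call that held with the libraries summed. Soat1, which esterifies cholesterol, read 170 and 191 against 266 and 303 CPM (-0.94 ± 0.15, edgeR adjusted p = 0.0194). Lpcat3, a phospholipid acyltransferase, was the gene above 0, at 134 and 136 against 64.2 and 63.7 CPM (0.80 ± 0.099, edgeR adjusted p = 0.0117). Several of these genes, such as Ch25h and Soat1, are known to be active in macrophages, and the macrophage marker sum moved the same way, as given above. Of 15 fatty acid oxidation genes, 3 were higher and none lower: Hadh (0.99 ± 0.17), Acadvl (0.76 ± 0.11) and Hadhb (0.49 ± 0.12), all mitochondrial enzymes. With the FOXO3 libraries summed none of the 15 passed, at edgeR adjusted p of 0.0669, 0.0600 and 0.119 for these 3. The part of macrophage content in these values was not tested.

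Added FOXO3 left no member past the threshold against the empty vector. Of 28 members, 12 had a fold change above 0 and 16 below, with a median of -0.020 against -0.039 over all genes, and 6 had an unadjusted p under 0.05 (2 above 0 and 4 below), against 23.1% of all genes in either direction. Over all genes tested, 2.20% were higher and 4.93% lower with FOXO3 (edgeR). With the FOXO3 libraries summed these shares were 0.213% and 0.974%, and again no member passed. DESeq2 called 1 member higher (Hsd17b7) and 2 lower (Acss2 and Lss), beside 5.51% and 9.11% of all genes. A fit on these 3 libraries alone, whose spread comes from the close FOXO3 libraries, called 10 higher and 10 lower, beside 34.1% and 35.9%. With library 1 or 2 labelled Mll4 deleted left out, 2 members, Acss2 and Lss, passed as lower, beside 9.29% and 9.18%. The EV group is 1 library, assumed to vary like the others.

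The widest difference was in Acss2, the nuclear and cytosolic acetyl-CoA synthetase. It read 4.58 and 4.81 CPM with FOXO3 and 27.2 CPM with EV, with a log2 fold change of -2.58 ± 0.68 (edgeR adjusted p = 0.0878). That gene also varied between libraries of a group in the first experiment, as given above. Hsd17b7 read 54.4 and 53.9 against 24.0 CPM (1.13 ± 0.35, edgeR adjusted p = 0.124). Lss read 29.5 and 30.2 against 41.5 CPM (-0.52 ± 0.14, edgeR adjusted p = 0.0961), and Cyp51 read 56.3 and 53.3 against 85.0 CPM (-0.68 ± 0.27, edgeR adjusted p = 0.215). Acat2, at 72.3 and 74.2 against 98.5 CPM, and Stard4, at 95.2 and 96.9 against 68.9 CPM, were the other members with an unadjusted p under 0.05. For Fasn the readings were 357 and 367 against 374 CPM, and the 95% interval of its log2 fold change ran from -0.40 to 0.21. For Srebf2, at 176 and 180.0 against 173 CPM, it ran from -0.43 to 0.43, so changes of that size in either direction could not be seen.

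Among the related lists, several genes differed with FOXO3 more widely than any member. Over all genes, 2.20% were higher and 4.93% lower with FOXO3, and 0.213% and 0.974% with the FOXO3 libraries summed. Fads2 read 2.21 and 2.01 CPM with FOXO3 and 45.7 CPM with EV (log2 fold change -4.49 ± 0.29, edgeR adjusted p = 0.00222), and the call held with the FOXO3 libraries summed. Fads3, another desaturase, was lower too, at 2 and 4 counts against 46. The sterol exporter Abca1 read 0.0809 and 0.290 against 5.96 CPM (-4.98 ± 0.73, edgeR adjusted p = 0.0183), and Ch25h 0.0270 and 0.223 against 2.38 CPM (-4.18 ± 0.83, edgeR adjusted p = 0.0427). The exporter Abcg1, the third lower gene of the efflux list, read 8.17 and 8.78 against 35.2 CPM (-2.10 ± 0.16, edgeR adjusted p = 0.00343), and it also passed with the libraries summed. Ehhadh, a peroxisomal oxidation enzyme, was higher, at 97 and 115 counts against 3. For Ehhadh the single EV library also lay below the deleted pair of the first experiment, by a log2 fold change of -5.25 ± 0.74. With the libraries summed the calls of Fads3, Abca1, Ch25h and Ehhadh were lost (edgeR adjusted p = 0.116, 0.0690, 0.0906 and 0.0717). No gene of the other sterol or SREBP control lists passed. The macrophage marker sum was 40.7 and 42.0 CPM with FOXO3 and 133 CPM with EV, with 4 of 8 markers lower (2 with the libraries summed). Erythroid markers summed to 0.782 and 0.557 CPM against 27.3 CPM, with 3 of 3 lower (1 with the libraries summed). In the first experiment they summed to 0.631 to 3.58 CPM, so here too the single EV library stood apart. The adipocyte, stroma and vessel list, in which Pecam1 held nearly all counts, summed to 25.6 and 24.9 CPM against 155 CPM, with 1 of 3 tested genes lower (none with the libraries summed). Promyelocyte granule genes summed to 20098 and 20031 CPM against 12484 CPM, with all 5 fold changes above 0 and none called. The cell cycle sum was 4029 and 4067 CPM against 4017 CPM, with no marker called. The part of these cell types in the values was not tested.

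The EV cells of the second experiment and the cells labelled Mll4 deleted of the first both lack Mll4 by label, and 6 of 28 members were higher in the EV cells, with none lower. The 6 were Acat2, Idi1, Lss, Sc5d, Acaca and Fasn, and 10 members, all above 0, had an unadjusted p under 0.05, against 38.8% of all genes in either direction. Over all genes, 9.54% were higher and 12.2% lower (edgeR). With the FOXO3 libraries summed, Idi1 and Fasn passed, beside 1.07% of genes higher and 5.90% lower, and 2 members passed with either FOXO3 library left out, beside 1.07% higher both times. DESeq2 called 8 members higher and none lower, beside 13.3% and 17.9% of genes, and with deleted library 1 left out 2 members, Mvd and Pmvk, passed as lower, beside 18.2%. The transformation, the vectors, the selection and the sex of the libraries differ together between these groups and cannot be told apart. This comparison uses libraries that the other comparisons use too, so its values are given only side by side with theirs.

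Idi1 read 167 CPM with EV and 62.7 and 37.2 CPM in the deleted pair, the largest difference among the members (log2 fold change 1.66 ± 0.29, edgeR adjusted p = 0.0173). In the Mll4 comparison it had 0.57. Fasn read 374 against 173 and 158 CPM (1.10 ± 0.12, edgeR adjusted p = 0.00732), beside 1.03 in the Mll4 comparison. Acat2 read 98.5 against 51.3 and 48.2 CPM (0.91 ± 0.17, edgeR adjusted p = 0.0216). Smaller differences were those of Lss (0.63 ± 0.14), Acaca (0.54 ± 0.12) and Sc5d (0.49 ± 0.12). Elovl6, Srebf1 and Scd1, higher in the Mll4 comparison, did not pass here, at 0.12 ± 0.17, -0.090 ± 0.15 and -0.24 ± 0.26. Mvd, Pmvk, Mvk and Tm7sf2 read lower with EV, at log2 fold changes of -0.47, -0.47, -0.19 and -0.56, and none passed. The median over members was 0.31, against -0.0012 over all genes.

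In the related lists the EV cells had 3 of 11 other sterol genes higher, led by Lbr, a sterol C14 reductase of the nuclear envelope (log2 fold change 1.31 ± 0.32, edgeR adjusted p = 0.0397), and Pdss1 (1.10 ± 0.26). Tmem97 (0.68 ± 0.11) was the other, and none of these passed with the FOXO3 libraries summed. Over all genes, 9.54% were higher and 12.2% lower in EV cells, and 1.07% and 5.90% with those libraries summed. Of the SREBP control genes, 2 of 12 were higher, Rnf145 (0.83 ± 0.20) and Marchf6 (0.52 ± 0.13), both ubiquitin ligases of the endoplasmic reticulum, and neither passed with the libraries summed. The elongation, desaturation and activation list had 3 higher and 3 lower, with Fads2 (1.45 ± 0.28) and Acsl3, an acyl-CoA synthetase (1.31 ± 0.18), above and Fads3 (-2.61 ± 0.53) and Lpin1, a phosphatidate phosphatase (-1.48 ± 0.22), below, of which Acsl3 and Lpin1 passed with the libraries summed. All 15 efflux, storage and LXR genes had a fold change below 0, and 7 passed (4 with the libraries summed). The widest called differences there were those of Nr1h3, which encodes LXR alpha (-3.67 ± 0.55), and Abcg1 (-2.76 ± 0.19), and the least wide those of Soat1 (-1.07 ± 0.19) and Nceh1, a cholesteryl ester hydrolase (-1.23 ± 0.18). Fatty acid oxidation had 1 lower gene of 15, Ehhadh, in both fits. Macrophage markers summed to 133 CPM with EV and to 1726 and 2823 CPM in the deleted pair, with 8 of 8 lower in both fits, and cell cycle markers to 4017 against 2165 and 2506 CPM, with 5 of 10 higher (none with the FOXO3 libraries summed). Erythroid markers summed to 27.3 against 0.936 and 0.631 CPM, with 3 of 3 higher in both fits. Their part in the members' values was not tested.

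In LSK cells the members split. With 1 library per genotype there is no replicate check and no test; a gene is counted where it differed by at least 2-fold and averaged 1 CPM or more. Of 25 members at that level, 6 were at least 2-fold higher in the library labelled Mll4 deleted and 11 at least 2-fold lower. Over all 10174 genes, 28.1% were higher and 34.9% lower, so that these libraries differed widely in genes of any kind. The median log2 ratio over members was -0.32, with members at 0 set to their bound, against -0.15 over all genes. The direction of these ratios rests on the LSK labels. Kmt2d had 359 counts in the library labelled Mll4 deleted against 50 in wild type, and a count over the whole gene does not check the labels. Hmgcs1 and Lss were at 0 counts in both LSK libraries, Mvk at 0 and 1 counts and Hsd17b7 at 7 and 14 counts, and these 4 were not compared.

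Of 5 mevalonate genes compared, 1 was at least 2-fold higher and 1 at least 2-fold lower, beside 28.1% and 34.9% of all genes. Acat2 had 1798 counts against 852 in wild type (69.4 and 32.0 CPM), a log2 ratio of 1.12 with a 95% exact binomial (Clopper-Pearson) interval of 0.998 to 1.24 that covers counting error only. Pmvk lay just inside 2-fold, at 131 and 67.4 CPM. Idi1 and Fdps had log2 ratios of 0.12 and -0.32. Mvd was the lower gene, with 0 counts against 460, at least 149-fold lower by the limit of 3 counts that a count of 0 allows. The squalene to cholesterol genes stood mostly lower: 6 of 9 were at least 2-fold lower in the library labelled Mll4 deleted. Nsdhl had 1 count against 726 (log2 ratio -9.47, interval -14.8 to -6.98), and Tm7sf2 0 against 168, at least 54.5-fold lower. Sqle (127 and 619 counts), Ebp (450 and 1770), Sc5d (120 and 382) and Dhcr7 (21 and 131) were lower by 3.10-fold to 6.07-fold. Cyp51 lay the other way, with 664 counts against 58, 11.8-fold higher.

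Srebf1 read 42.1 CPM against 12.4 CPM in wild type LSK cells, 3.41-fold higher, and Insig1 6.10 and 3.05 CPM, 2.00-fold higher. Srebf2 (62.9 and 78.2 CPM) and Stard4 (2.05 and 1.92 CPM) lay within 2-fold. The widest ratio of the members in each direction was that of a fatty acid gene. Acaca had 842 counts against 11, 78.6-fold higher, while Acss2 had 0 against 3544, at least 1150-fold lower. Fasn had 86 counts against 1778, 20.1-fold lower, Acly 314 against 1441, 4.47-fold lower, and Elovl6 352 against 808, 2.23-fold lower. Scd1, at 40 and 18 counts, was 2.28-fold higher, and Scd2, at 235 and 267 CPM, was level. Among all genes compared, 866 had 0 counts in 1 of the LSK libraries, so a gene seen in only one of them was common.

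**Figure D5:**
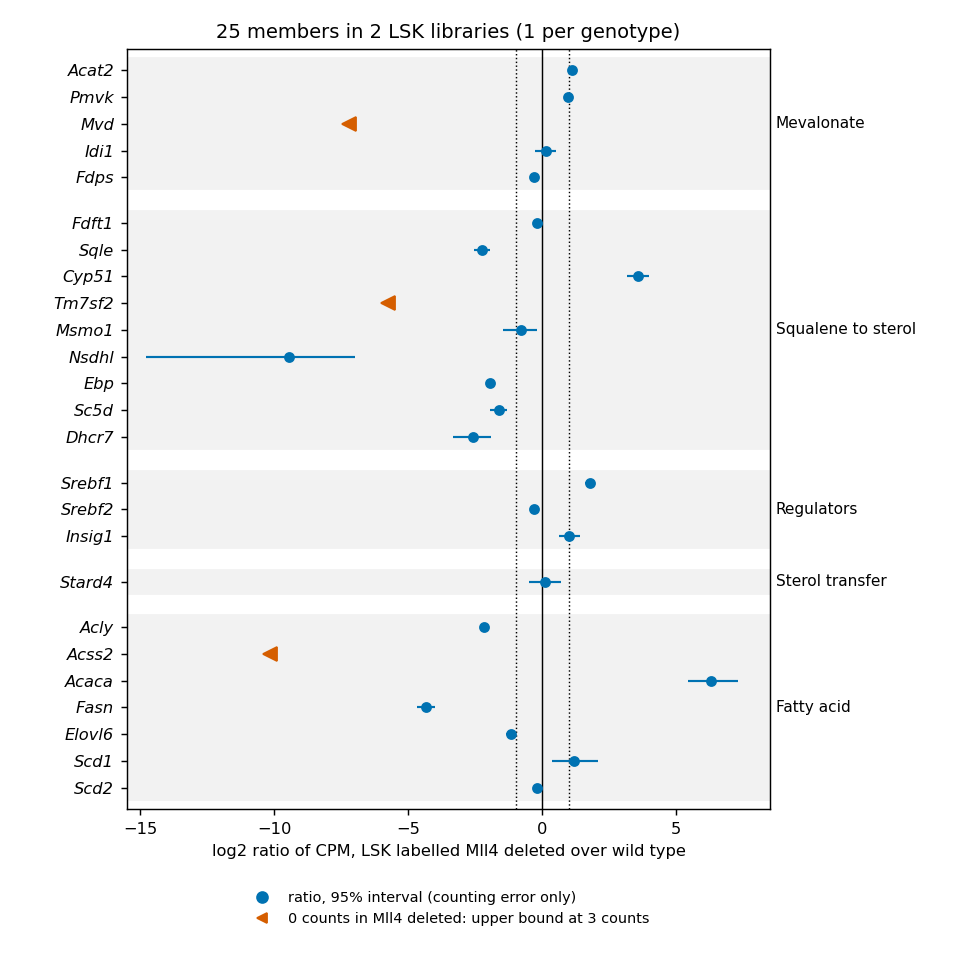
Log2 ratio of CPM, LSK library labelled Mll4 deleted over wild type, for the 25 members that averaged 1 CPM or more, grouped by role; bars are 95% Clopper-Pearson intervals (counting error only), triangles are upper bounds for members with 0 counts, and dotted lines mark 2-fold. Points lie right of the 2-fold line for 6 members, farthest for Acaca, and left of it for 11, of which Acss2 and Nsdhl are farthest.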

How the data were processed

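The deposited files hold raw read counts per NCBI gene number, 1 file per library, whole numbers that were not normalized. Per the submitters' processing notes, TopHat2 2.0.11, Bowtie 0.12.8 and build mm9 were used; which counter and annotation made the counts, and whether strand was used, is not given in the sources used here. Symbols came from RefSeq (GRCm38.p6) for 23185 of 23282 gene numbers. CPM is the count per 1000000 counts of the library. The 7 MLL-AF9 libraries were fitted together in edgeR 4.0.16 (R 4.3.3) with 1 coefficient per group, TMM scaling and filterByExpr at its defaults. Quasi-likelihood tests were adjusted by Benjamini-Hochberg over all genes. The script was tested on simulated data with the same spread in all groups, so that trial does not cover the unequal spread of the real pairs. Library sex was read from sex-linked genes. LSK ratios carry 95% Clopper-Pearson intervals, which cover counting error only, since PCR copies are not independent molecules. A count of 0 allows up to 3 counts. Totals of 25895041 to 61950773 counts per library set the counting precision.

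The members and the gene lists were chosen with earlier results of these data known. All members are named. Of each further pathway list and comparison, up to 2 called genes with the largest and 2 with the smallest fold change are named, and of marker lists up to 2 of the most abundant. Alternatives were scaling by RLE, by the upper quartile or by totals, leaving out the filter or asking for 5 CPM on average, DESeq2 1.42.0, robust estimation, the FOXO3 libraries summed, only the libraries compared, the library number or sex as a block, and each library left out. Summing the FOXO3 libraries together with scaling by totals, and ratios within each sex, were added after seeing the data. Some genes of these pathways are not reported here.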

Additional observations from a re-analysis of the deposited data

Results flagged for a closer look

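In 4 members the LSK libraries lay at least 2-fold lower in the library labelled Mll4 deleted, while both MLL-AF9 libraries labelled Mll4 deleted lay above both intact ones. The other 7 of the 11 members at least 2-fold lower in LSK cells overlapped between the MLL-AF9 pairs. Taken alone, the MLL-AF9 pattern held for 19 of 28 members and 26.9% of all genes tested. The share of all genes with both patterns was not counted. All 6 members that were at least 2-fold higher in that LSK library (Acat2, Cyp51, Srebf1, Insig1, Acaca and Scd1) also lay above in the MLL-AF9 pair. Among the 4, the log2 ratio in LSK cells was -4.33 for Fasn, -1.16 for Elovl6 and -9.47 for Nsdhl. It was at most -5.77 for Tm7sf2, which had 0 counts in the library labelled Mll4 deleted. The difference between LSK and MLL-AF9 cells was not tested, since each LSK genotype is 1 library. Its direction depends on the LSK labels, which the Kmt2d counts over the whole gene do not check. With the LSK labels turned, these 6 and not the 4 would lie in opposite directions.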

How the results depend on the processing

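The number of members higher in MLL-AF9 cells labelled Mll4 deleted was 8, beside 7.97% of all genes. It was 18 with library totals alone (19.6% of genes), 14 with DESeq2 (13.6%) and 13 with no expression filter (7.92%). It was 2 with the FOXO3 libraries summed (1.23%) and 0 with only the libraries compared (0%). It ran from 2 to 14 with each library left out. The count of lower members, 0, was 1 with DESeq2 and 1 with the replicate block, both times Msmo1, and 0 with each library left out. Their median, 0.56, was 0.85 with library totals alone, also with the FOXO3 libraries summed, and 0.48 to 0.63 with each library left out. With FOXO3, the 0 higher and 0 lower members became 1 and 2 with DESeq2, 10 and 10 with only the libraries compared, 0 and 2 with the replicate block and 1 and 0 with sex as a block; leaving out each library gave 0 higher and 0 to 2 lower. In the comparison of EV with deleted cells, the 6 higher members became 2 with the FOXO3 libraries summed, 3 with those summed and library totals alone, 0 with only the libraries compared, and 2 to 9 with each library left out; the 0 lower became 1 with the replicate block and 0 to 2 with each library left out. Over all genes with FOXO3, the replicate block called 5.41% higher and 9.13% lower, and sex as a block 1.63% and 3.30%. For EV over deleted cells, the replicate block called 17.8% of genes lower. In LSK cells the 11 lower members became 7 at a mean of at least 10 CPM, where 16 members were compared and 33.6% of genes were lower.

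The log2 fold change of some members that did not pass changed sign in the Mll4 comparison. With library totals alone Mvd was 0.18 and Sc5d 0.20, and the same with the FOXO3 libraries summed. With each library left out, Mvd ran from -0.43 to 0.24, Sqle from -0.15 to 0.48, Sc5d from -0.12 to 0.042, Dhcr7 from -0.17 to 0.31, Acly from -0.097 to 0.42 and Acss2 from -0.57 to 1.11. The library numbers come from file names and pair nothing by label. With the replicate block 12 members were higher, beside 13.6% of all genes, and 1 was lower, beside 14.4%. The numbered differences of the Mll4 pairs correlated by r = 0.19 across 14372 genes. Except where a smaller fit or filter sets it, the cause of these changes was not tested.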

Other observations

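In the LSK libraries, related lists outside the members were also read, and the genes here were chosen after their values were seen. Over all genes compared, 28.1% were at least 2-fold higher in the library labelled Mll4 deleted and 34.9% at least 2-fold lower. Of 11 genes of sterol efflux, storage and LXR that averaged 1 CPM or more, 8 were at least 2-fold lower in the library labelled Mll4 deleted and none was at least 2-fold higher, with a median log2 ratio of -2.43. Fatty acid oxidation had 4 higher and 5 lower of 14, about the shares of all genes. Acadvl, the first enzyme of mitochondrial oxidation of long chains, had 2563 counts in the library labelled Mll4 deleted and 40 in wild type, and Lpin1, a phosphatidate phosphatase, read 62.9 and 0.827 CPM. Of the 8 macrophage markers, 1 reached a mean of 1 CPM in these libraries.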
